A study of Drosophila melanogaster with 12 samples.

Results

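The 37 genes described here encode the receptors of neuropeptides and peptide hormones of Drosophila melanogaster. They were chosen as a list of FlyBase symbols of peptide-binding G protein-coupled receptors, a rule that uses no measured value, although earlier results of these data were known when the list was made. All 37 were found among the 17737 genes of each count table. Poly(A) RNA was sequenced from 12 libraries in 4 groups of 3. The first group is whole brain of 3rd instar larvae in which elav gal4 drove a short hairpin RNA (shRNA) against Atx2, the gene of the RNA-binding protein Ataxin-2, and its control is whole brain of 3rd instar larvae with no treatment. The other pair is S2 cells, a macrophage-like line from fly embryos, given double-stranded RNA (dsRNA) against Atx2, and S2 cells with no treatment. elav gal4 drives expression mainly in neurons, so glia and other cells of the brain are not its main target. The labels name no driver, hairpin or unrelated dsRNA in the controls, so the presence of the transgenes, or of any dsRNA, cannot be told apart from the lowering of Atx2. The labels do not say whether replicates were separate animals, pools or cultures, and p-values measure the spread between these libraries.

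Neuropeptides are cut from larger precursors, stored in dense core vesicles and released far beyond the synapse, so the place where a peptide acts is set by the cells that make its receptor. Most insect peptide receptors belong to the rhodopsin class of G protein-coupled receptors, a small group related to the calcitonin and corticotropin-releasing factor receptors of vertebrates belongs to the secretin class, and those with a leucine-rich outer domain bind large glycoprotein-like or relaxin-like hormones. In larvae they govern feeding, growth, water balance, moulting behaviour and daily rhythms.

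Total counts were 26442727 to 28086056 in shRNA brain, 29754856 to 31579528 in control brain, 14944637 to 20400465 in dsRNA S2 cells and 25994555 to 29020252 in control S2 cells. Atx2 itself had 92.4, 97.8 and 104.1 CPM (a gene's count relative to the scaled total of its library) in shRNA brain, against 187.0, 195 and 197 CPM in control brain, a log2 fold change of -0.97 (adjusted p = 0.00271, edgeR quasi-likelihood test with Benjamini-Hochberg adjustment over all genes, as for every adjusted p of a single gene below). In S2 cells Atx2 had 149, 55.3 and 166 CPM with dsRNA, against 242, 218 and 226 CPM in control, a log2 fold change of -0.89 that did not pass (adjusted p = 0.0613). Some brain libraries held RNA of other tissues. The summed CPM of 6 gut enzyme genes was 2098 in shRNA library 1 and at most 2.763 in any other brain library, and that of 6 salivary gland genes was 1845 in control library 3 and at most 32.76 elsewhere. Among the brain's own cell types, 5 of 6 neuroblast markers were lower in shRNA brain (148.4 to 211.5 summed CPM, against 447.1 to 512.7 in control) and 5 of 6 glial markers were higher (1545 to 2351, against 901.8 to 1222 in control). Of 8 neuronal markers 2 were higher and 2 lower, and their sum was 2100 to 2344 CPM in shRNA brain, against 2005 to 2559 CPM in control brain. Of 6 hemocyte markers 2 were higher (295.7 to 475 summed CPM in shRNA brain, against 128.5 to 225.1 in control brain) and of 6 fat body markers 1. No ring gland marker of 5 (230.8 to 494.7, against 368.5 to 552.7 in control brain) and no trachea or cuticle marker of 4 tested (421.4 to 731.2 over the list, against 525.2 to 639.5 in control brain) passed, and none of 6 muscle markers did. The part of these differences in cell markers in the receptor results was not tested. In bulk RNA, fewer cells of a type and less RNA per cell cannot be told apart.

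The brain expressed nearly the whole list and S2 cells very little of it. A mean of at least 1 CPM was reached by 36 of the 37 receptors in shRNA brain and 32 in control brain, against 5 in dsRNA S2 cells and 4 in control S2 cells. Per kilobase of exon, given as RPKM (CPM divided by exon length in kilobases), the median receptor stood at 3.412 in shRNA brain, 2.582 in control brain, 0.06096 in dsRNA S2 cells and 0.01663 in control S2 cells. Brain and S2 libraries were scaled separately, so levels across them are set side by side without a test. In control brain the highest levels on this scale were those of AstC-R2 (8.318 RPKM), one of the paired receptors of the somatostatin-like peptide allatostatin C, and of CCKLR-17D3 (7.666 RPKM), a receptor of the cholecystokinin-like drosulfakinins. The diuretic hormone receptors Dh31-R (5.791 RPKM) and Dh44-R2 (5.287 RPKM) followed them. In shRNA brain the highest were Dh31-R at 9.964, Proc-R at 9.638, CCKLR-17D3 at 9.475 and Dh44-R2 at 9.469 RPKM. The lowest in control brain was AkhR at 0.09572 RPKM, the receptor of adipokinetic hormone that acts mostly in the fat body, and the lowest in shRNA brain was the pyrokinin receptor PK1-R at 0.2511 RPKM. In S2 cells the highest receptors were those of moulting peptides, CCAP-R with dsRNA (2.364 RPKM) and ETHR in control (1.761 RPKM).

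In larval brain, receptor transcripts were mostly higher with the Atx2 hairpin. All 37 receptors were tested, 11 rose, 1 fell and 25 did not pass. Over all 10438 genes tested in brain, 23.0% were called, 11.5% higher and 11.5% lower, so the 29.7% of receptors called higher lie above the share over all genes and the 2.7% called lower lie below it. The fold change was positive for 34 receptors and negative for 3, and the median log2 fold change was 0.65, against 0.01 over all genes tested. The 3 libraries of a group did not overlap with the other group for 22 receptors. Of these, 20 were higher in every shRNA library and 2, AstC-R1 and rk, were lower, while over all genes 22.0% did not overlap in the higher direction and 22.5% in the lower. At an unadjusted p under 0.05 there were 22 of the 37 receptors and 4117 of the 10438 genes. DESeq2 called 16 receptors higher and 1 lower, 45.9% of them, against 31.8% of all genes. The summed receptor CPM was 559.2, 494.8 and 411.7 in shRNA brain, against 330.0, 346.0 and 284.9 in control brain. The sums do not overlap. Of the shRNA libraries, library 1, the one with gut RNA, held the highest value for 25 of the 37 receptors and library 3 the lowest for 29. In control brain, library 3, the one with salivary gland RNA, held the lowest value for 26.

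**Figure D1:**
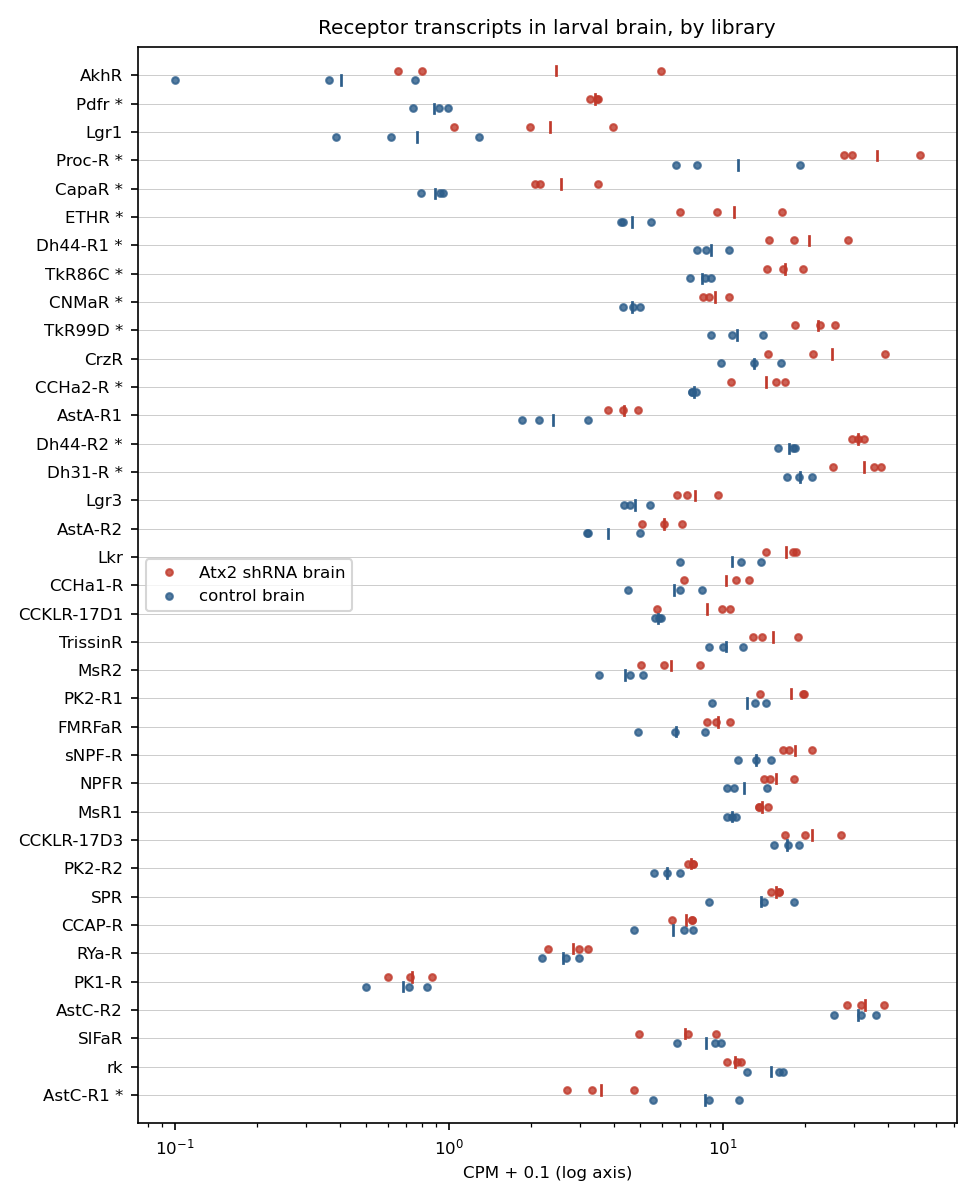
CPM plus 0.1 (log axis) of the 37 receptor genes in each larval brain library, Atx2 shRNA brain in red above control brain in blue, with short vertical lines at the group means and genes ordered by log2 fold change. Stars mark the 12 receptors past the threshold, and 20 receptors have every red point to the right of every blue point.

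All 4 receptors of the secretin class rose. This grouping was made after the values were seen and is a description. Pdfr, the receptor of the clock neuron peptide PDF, had 3.38, 3.41 and 3.18 CPM in shRNA brain, against 0.820, 0.637 and 0.892 CPM in control brain. The shRNA libraries lay close together and far above control, with a log2 fold change of 2.08 ± 0.28 (SE, n = 3 each; adjusted p = 0.00732). Dh44-R2, a receptor of the corticotropin-releasing factor-like diuretic hormone 44, had 32.7, 31.1 and 29.4 CPM in shRNA brain, against 15.9, 18.2 and 18.0 CPM in control brain (log2 fold change 0.84 ± 0.10, adjusted p = 0.00606). Again the groups were far apart relative to their spread. Its exons share bases with 2 genes, the most (551) with CG34234 on the other strand. Since the strand setting of the counting is not known, such reads could be split. CG34234 had at most 0.11 CPM in shRNA brain and 0.132 CPM in control brain. The effect of the overlaps on the counts of Dh44-R2 was not tested. Of the other receptors rk, Lgr3, SPR and RYa-R share exon bases with a gene on the other strand. Its partner Dh44-R1 had 28.6, 18.1 and 14.6 CPM, against 8.58, 10.4 and 7.93 CPM in control brain, a larger mean change with a wider spread (1.19 ± 0.27, adjusted p = 0.0244). Dh31-R, the receptor of the calcitonin-like diuretic hormone 31, had 37.6, 35.5 and 25.1 CPM in shRNA brain, against 17.1, 21.1 and 18.8 CPM in control brain (0.78 ± 0.17, adjusted p = 0.0234). For both Dh44-R1 and Dh31-R the groups did not overlap, and shRNA library 3 was the lowest of its group. With each of the 6 brain libraries left out in turn, Pdfr and Dh44-R2 passed every time. Dh44-R1 passed in 2 of the 6 fits and was lost without shRNA library 2 (adjusted p = 0.0629) and without control library 1 (0.0834), 2 (0.0707) or 3 (0.0704). Dh31-R passed in 1, the fit without shRNA library 3, and had adjusted p-values of 0.0632 to 0.081 without any one of the other 5.

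Both tachykinin-related receptors rose. TkR86C, the receptor of natalisin, had 19.5, 16.5 and 14.4 CPM in shRNA brain, against 8.92, 8.54 and 7.50 CPM in control brain (log2 fold change 1.01 ± 0.16, adjusted p = 0.0108). TkR99D, the receptor of tachykinins, had 25.5, 22.5 and 18.2 CPM, against 10.7, 13.9 and 8.92 CPM in control brain (0.98 ± 0.21, adjusted p = 0.02). In both genes every shRNA library was above every control library. Of the 6 fits with 1 library left out, TkR86C lost its call in the one without control library 2 (adjusted p = 0.0513). TkR99D kept it without shRNA library 3 or control library 2 and lost it without shRNA library 1 (0.0552) or 2 (0.0698) and without control library 1 (0.074) or 3 (0.05).

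The other 5 receptors that rose were CNMaR, CCHa2-R, CapaR, ETHR and Proc-R. CNMaR, the receptor of the CNMamide peptide, had 10.5, 8.81 and 8.39 CPM in shRNA brain, against 4.61, 4.88 and 4.23 CPM in control brain (log2 fold change 1.01 ± 0.19, adjusted p = 0.0147). CCHa2-R, which in larvae serves the insulin-producing cells of the brain, had 16.7, 15.5 and 10.6 CPM, against 7.90, 7.65 and 7.60 CPM in control brain (0.89 ± 0.20, adjusted p = 0.0249). CapaR, best known from the Malpighian tubules, had 3.41, 2.06 and 1.96 CPM, against 0.855, 0.828 and 0.694 CPM in control brain (1.64 ± 0.34, adjusted p = 0.0198). The control libraries of these genes were nearly equal, and the shRNA libraries lay above them with a wider spread. ETHR, the receptor of ecdysis-triggering hormone, which starts the behaviour of shedding the old cuticle, had 16.4, 9.40 and 6.89 CPM in shRNA brain, against 4.20, 4.14 and 5.35 CPM in control brain (1.25 ± 0.34, adjusted p = 0.0426). Proc-R, the receptor of the muscle-active peptide proctolin, had 29.5, 52.2 and 27.6 CPM, against 7.93, 6.66 and 19.1 CPM in control brain (1.70 ± 0.46, adjusted p = 0.0406). For ETHR the highest shRNA library was library 1, and for Proc-R library 2 was high and control library 3 was the highest of its group, with no overlap in either gene. Muscle markers summed to 1047 CPM in that shRNA library 2, 387.8 and 243.3 CPM in the other shRNA libraries and 68.66 to 286.8 CPM in control brain, with the highest control value in library 3, the library in which Proc-R was highest. Their part in the value of Proc-R was not tested.

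These 5 calls depended on single libraries. CNMaR was lost without shRNA library 2 (adjusted p = 0.0549) and without control library 1 (0.0573) or 2 (0.0609). Of the fits with 1 library left out, CCHa2-R, CapaR and ETHR passed only in the one without shRNA library 3. CCHa2-R reached adjusted p-values of 0.0625 to 0.0898 without any one of the other libraries, CapaR 0.0543 to 0.0795 and ETHR 0.0749 to 0.139. Of the same fits, Proc-R passed only in the one without control library 3, where its log2 fold change was 2.31 (adjusted p = 0.019), and had 0.0516 to 0.126 without any one of the others. The direction of all 11 higher receptors was the same in all these fits.

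AstC-R1 was the only receptor called lower. It had 2.61, 3.23 and 4.65 CPM in shRNA brain, against 11.3, 8.83 and 5.45 CPM in control brain, a log2 fold change of -1.28 ± 0.35 (adjusted p = 0.0427). The groups did not overlap, though the highest shRNA library and the lowest control library were close. The call held without shRNA library 3 (0.0404) and without control library 3 (0.0362), and was lost without shRNA library 1 (0.101) or 2 (0.129) and without control library 1 (0.132) or 2 (0.133). AstC-R2 binds the same peptides and lies 57.7 kb away on chromosome arm 3L. It had 31.9, 28.3 and 38.5 CPM in shRNA brain, against 31.9, 36.0 and 25.3 CPM in control brain, with overlapping groups (0.08, adjusted p = 0.752). The ratio of AstC-R1 to AstC-R2 counts was 0.0818, 0.114 and 0.121 in the shRNA libraries, against 0.354, 0.245 and 0.216 in the control libraries. An exact two-sided permutation test of this ratio gave p = 0.1. That is the lowest value that 3 libraries against 3 can reach, so the test cannot decide. The ratio is given as a description of unequal change. The other paired receptors had positive fold changes in both members. The myosuppressin receptors MsR1 and MsR2, the hugin receptors PK2-R1 and PK2-R2, the drosulfakinin receptors CCKLR-17D1 and CCKLR-17D3 and the allatostatin A receptors AstA-R1 and AstA-R2 had log2 fold changes of 0.37 and 0.56, 0.54 and 0.29, 0.60 and 0.31, and 0.89 and 0.69, none of them past the threshold.

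Among the 25 receptors that did not pass, the closest were Lgr3 (log2 fold change 0.74, adjusted p = 0.0544), which binds the relaxin-like growth signal Ilp8, the short neuropeptide F receptor sNPF-R (0.48, 0.0705) and MsR1 (0.37, 0.0728). None of the 3 leucine-rich repeat receptors passed. Of these, rk, the receptor of the cuticle-tanning hormone bursicon, had 11.2, 11.5 and 10.2 CPM in shRNA brain, against 16.0, 16.4 and 12.2 CPM in control brain (-0.43, adjusted p = 0.0932), with no overlap. It passed as lower without control library 3 (0.0477). Single libraries set the largest values that failed. AkhR had 5.83, 0.551 and 0.699 CPM in shRNA brain, against 0.649, 0 and 0.264 CPM in control brain (2.94, adjusted p = 0.155), and its high value lay in shRNA library 1, where fat body markers summed to 3770 CPM, against 1814 and 788.4 CPM in the other shRNA libraries and 382.1 to 714 CPM in control brain. Lgr1, the receptor of the glycoprotein hormone Gpa2/Gpb5, had 3.87, 1.87 and 0.944 CPM in shRNA brain, against 0.513, 0.287 and 1.19 CPM in control brain (1.74, adjusted p = 0.115). AkhR and Lgr1 reached the filter on low counts through the shRNA libraries alone. The corazonin receptor CrzR had 39.0, 21.3 and 14.5 CPM, against 16.2, 12.9 and 9.71 CPM in control brain (0.95, adjusted p = 0.112), so the groups overlapped. The lowest changes in size were those of AstC-R2, PK1-R (0.12), RYa-R (0.12), CCAP-R (0.15), the sex peptide receptor SPR (0.19) and SIFaR (-0.26), all with overlapping groups and adjusted p-values of 0.55 to 0.843. The remaining receptors, TrissinR, Lkr, NPFR, FMRFaR and CCHa1-R, had log2 fold changes of 0.40 to 0.66 and adjusted p-values of 0.0804 to 0.175.

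Without shRNA library 1 and control library 3 together, the 2 libraries with gut and salivary gland RNA, 5 receptors passed, namely Dh44-R2, Pdfr, Proc-R and TkR86C as higher and AstC-R1 as lower. That is 13.5% of the receptors, near the 11.7% of all genes called in that fit, and the median over the receptors was 0.37. Of single libraries, leaving out shRNA library 1 gave 5 called receptors (13.5%, against 13.1% of all genes in that fit), shRNA library 2 gave 3 (8.11%, against 7.73%), and shRNA library 3 gave 13 (35.1%, against 21.9%). Leaving out control library 1 gave 3 (8.11%, against 9.28%), control library 2 gave 3 (8.11%, against 4.58%) and control library 3 gave 7 (18.9%, against 14.4%). Thus the share of receptors called in either direction was near that of all genes without shRNA library 1 or 2, without control library 1 and without the pair. The share called higher was 13.5% (6.72% of all genes), 8.11% (4.03%), 8.11% (4.58%) and 10.8% (6.78%) in these fits. The share called lower was 0% in all but the fit without the pair, where it was 2.7% (4.96%). These shares rest on few receptors. In the 6 fits with 1 library left out, the median log2 fold change of the receptors was 0.47 to 0.82.

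The genes of the peptides that these receptors bind were also mostly higher in shRNA brain. Of 34 peptide genes, 30 were tested in brain, 23 rose and none fell, with a median log2 fold change of 1.16. That is 76.7% called higher, against 11.5% of all genes tested. With 1 library left out, 14 to 22 passed, and a fit that used the replicate numbers as pairs called 1. Of the 42 pairs of a receptor and a peptide, both genes were tested in 38, and the change had the same sign in 32 pairs and opposite signs in 6. The receptor's change was the smaller of the pair in 28 and the larger in 10. At least 1 peptide rose for 9 of the 11 receptors that rose, for AstC-R1, which fell, and for 20 of the 25 that did not pass. No test was made over the pairs, and receptor and peptide come from the same libraries. As 34 of the 37 receptors and 29 of the 30 peptide genes tested had positive changes, most pairs would share a sign under any pairing. These counts therefore do not show that receptors moved with their own peptides.

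**Figure D2:**
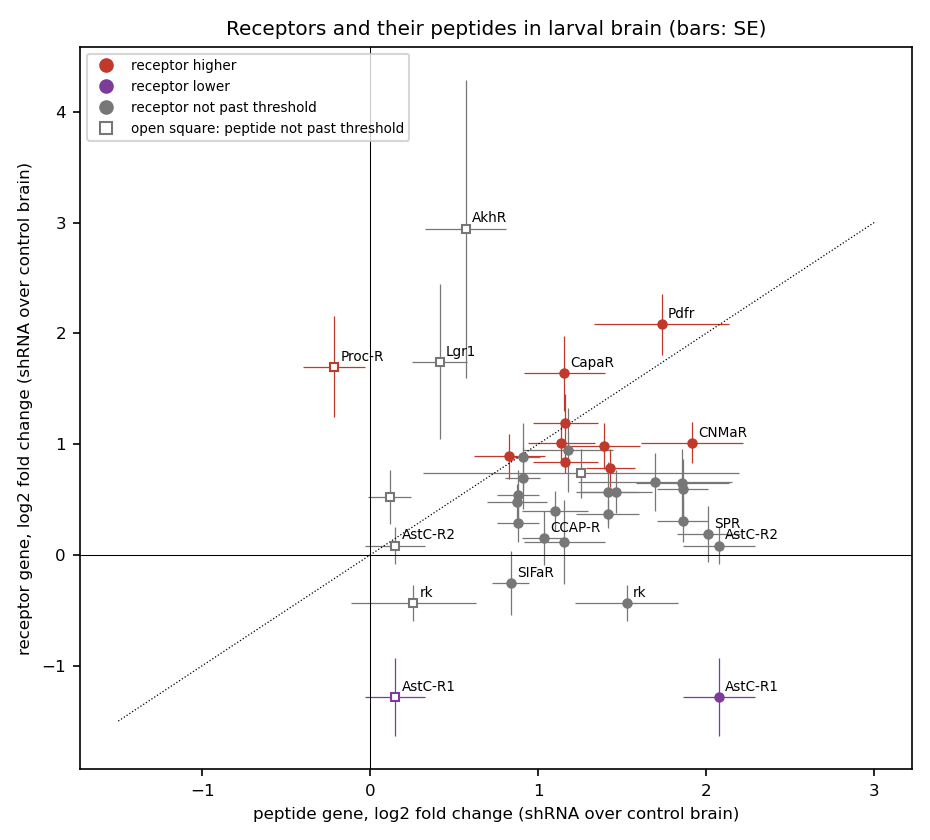
Log2 fold change in larval brain, Atx2 shRNA over control, of each receptor gene (vertical axis) against that of each of its peptide genes (horizontal axis), with bars of 1 SE and a dotted line of equal change. Most pairs lie right of 0 and below the line, AstC-R1 lies at -1.28 on the receptor axis and 2.08 on the peptide axis for AstC, and open squares are peptides that did not pass.

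Pairs in which both partners rose were Pdfr with Pdf (receptor 2.08, peptide 1.73), Dh44-R1 and Dh44-R2 with Dh44 (1.19 and 0.84, peptide 1.16) and Dh31-R with Dh31 (0.78, peptide 1.43). They also were TkR86C with natalisin (1.01, peptide 1.14), TkR99D with Tk (0.98, peptide 1.39), CNMaR with CNMa (1.01, peptide 1.91), CapaR with Capa (1.64, peptide 1.16) and CCHa2-R with CCHa2 (0.89, peptide 0.83). These are log2 fold changes and do not compare levels between genes. Pdf had 60.7, 36.0 and 21.4 CPM in shRNA brain, against 13.7, 13.7 and 8.03 CPM in control brain (adjusted p = 0.0268). Its shRNA libraries spread widely while those of Pdfr were nearly equal. Dh31 had 85.1, 78.8 and 67.5 CPM, against 23.6, 29.8 and 32.6 CPM in control brain (adjusted p = 0.00466). Of the other 2 receptors that rose, Proc-R stood beside a peptide gene that did not pass, with 117.1, 82.6 and 79.9 CPM of Proc in shRNA brain and 88.6, 114.0 and 122.1 CPM in control brain (-0.22, adjusted p = 0.431). ETHR stood beside ETH, which is made by cells on the tracheae and was not tested, with 0.230, 0.330 and 0.0699 CPM in shRNA brain and 0.171, 0.0637 and 0.0991 CPM in control brain.

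AstC and its receptor AstC-R1 moved in opposite directions. AstC had 52.4, 53.4 and 45.1 CPM in shRNA brain, against 8.51, 12.2 and 15.1 CPM in control brain (log2 fold change 2.08, adjusted p = 0.00466), the largest change of any of the 30 peptide genes tested. The groups were several-fold apart in every library. Its paralog AstCC did not pass (0.15, adjusted p = 0.577). The other pairs of opposite sign were AstC-R1 with AstCC, SIFaR with SIFa (-0.26, peptide 0.84), rk with Burs (-0.43, peptide 1.53) and Pburs (0.26, not past), and Proc-R with Proc. Large rises of a peptide also stood beside receptors that did not pass. Mip (2.01), which can act on SPR, stood beside 0.19 for that receptor, and the drosulfakinin gene Dsk (1.86) beside 0.60 and 0.31 for its receptors. CCHa1 (1.86), Lk (1.69), Trissin (1.46), Ms (1.41), Crz (1.18), NPF (1.10), CCAP (1.04), AstA (0.91), Hug (0.88) and sNPF (0.88) rose as well. Gpa2 and SP had no counts in any brain library.

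Other G protein-coupled receptors of neurons were also mostly higher. Of 24 receptors for amines, acetylcholine, GABA and glutamate, 23 were tested, 17 rose (73.9%, against 11.5% of all genes) and none fell. Their median log2 fold change was 0.71 beside 0.65 for the peptide receptors. The largest were the octopamine receptor Octbeta2R (1.35, adjusted p = 0.0103), the serotonin receptor 5-HT2B (1.20, 0.0183), the dopamine and ecdysone receptor DopEcR (1.15, 0.00846) and the tyramine receptor TyrRII (1.11, 0.0391). Of 14 genes for peptide maturation and dense core vesicles 7 rose (50%) and none fell (median 0.48). Among them were 7B2 (1.36, 0.00678), the chaperone of a prohormone convertase, and Pal2 (1.25, 0.00753), an enzyme of peptide amidation. The synaptotagmin Sytalpha (0.96, 0.0129) and the vesicle protein IA-2 (0.73, 0.0379) were others. The signalling machinery behind the receptors was called about as often as all genes. Of 30 genes for G protein subunits, effectors, arrestin and receptor kinases 29 were tested, 5 rose and 3 fell, which is 27.6% called, near the 23.0% over all genes, with a median of 0.08 and summed CPM of 5071 to 5267 in shRNA brain, against 5005 to 5446 in control brain. The adenylyl cyclase genes Ac76E (1.42, 0.0123) and Ac78C (0.80, 0.0149) and the protein kinase C gene Pkc53E (1.36, 0.0108) rose, and Gbeta13F (-0.60, 0.00782), Galphai (-0.49, 0.0221) and the receptor kinase Gprk2 (-0.40, 0.0272) fell. With 1 library left out, fewer of the receptors for small transmitters were called. Without shRNA library 1 the calls were 9 of 23 tested (39.1%, against 13.1% of all genes in that fit). Without shRNA library 2 they were 7 of 23 (30.4%, against 7.73%), and without shRNA library 3 16 of 24 (66.7%, against 21.9%). Without control library 1, 2 or 3 they were 9, 5 and 10 of 23. Those are 39.1%, 21.7% and 43.5%, against 9.28%, 4.58% and 14.4% of all genes.

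**Figure D3:**
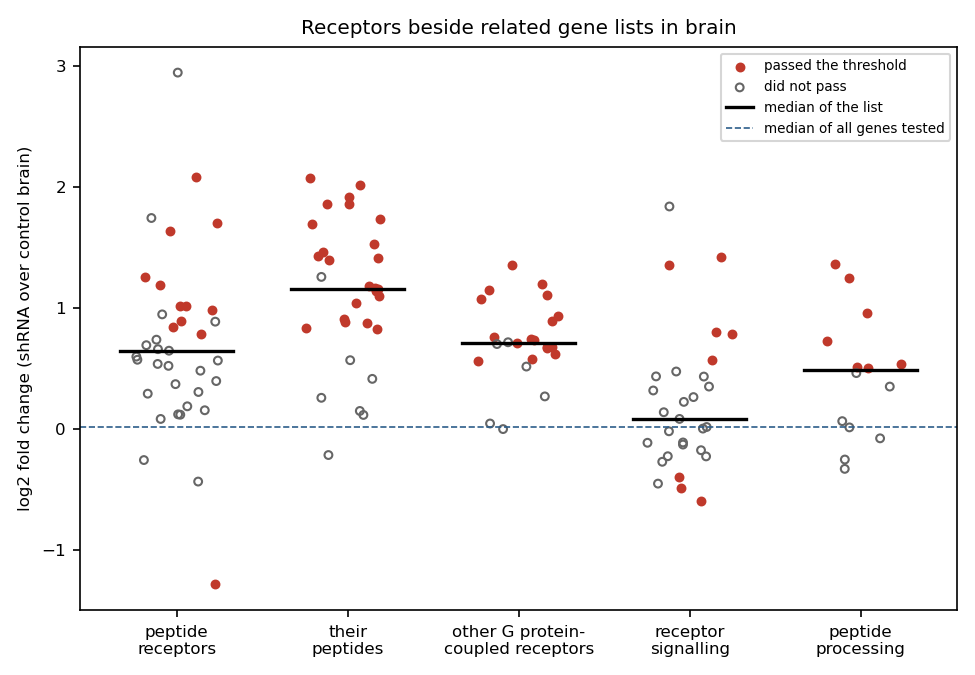
Log2 fold change in larval brain, Atx2 shRNA over control, of every tested gene in 5 lists, with filled points past the threshold, a black line at each list's median and a dashed line at the median of all genes tested. The medians are 0.65 for peptide receptors, 1.16 for their peptides, 0.71 for other G protein-coupled receptors, 0.08 for receptor signalling and 0.48 for peptide processing.

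In S2 cells most receptors were too low to test, and a few rose steeply. Of the 37, 12 passed the filter on low counts and 25 were not tested. Of the 12, 7 rose, 2 fell and 3 did not pass. Over all 9058 genes tested 55.0% were called, 28.5% higher and 26.6% lower, which is 2580 and 2406 genes. With library totals alone, which move the median of all genes by 0.4857, the split was 4906 higher and 1324 lower, and with upper quartile scaling 3406 and 1870. All 9 called receptors kept their direction under both. CCAP-R, CCKLR-17D3, CrzR, rk, Pdfr and SIFaR reached the filter through the dsRNA libraries alone and CCHa2-R through the control libraries alone. They had to differ to be tested, and their count is no support for a common direction. Over all 37, 26 had more CPM on average with dsRNA, 8 had fewer and 3 (AstA-R2, MsR2 and PK2-R2) had no counts in either group. The groups did not overlap for 13 higher and 2 lower receptors of the 37, which among the 12 tested are 7 and 2, against 63.8% of all genes tested, 33.3% higher and 30.5% lower. The summed receptor CPM was 40.5, 25.57 and 24.85 with dsRNA, against 21.27, 11.42 and 14.27 in control. Library 1 held the highest value for 19 of the 34 receptors detected with dsRNA and for 15 of the 29 detected in control.

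**Figure D4:**
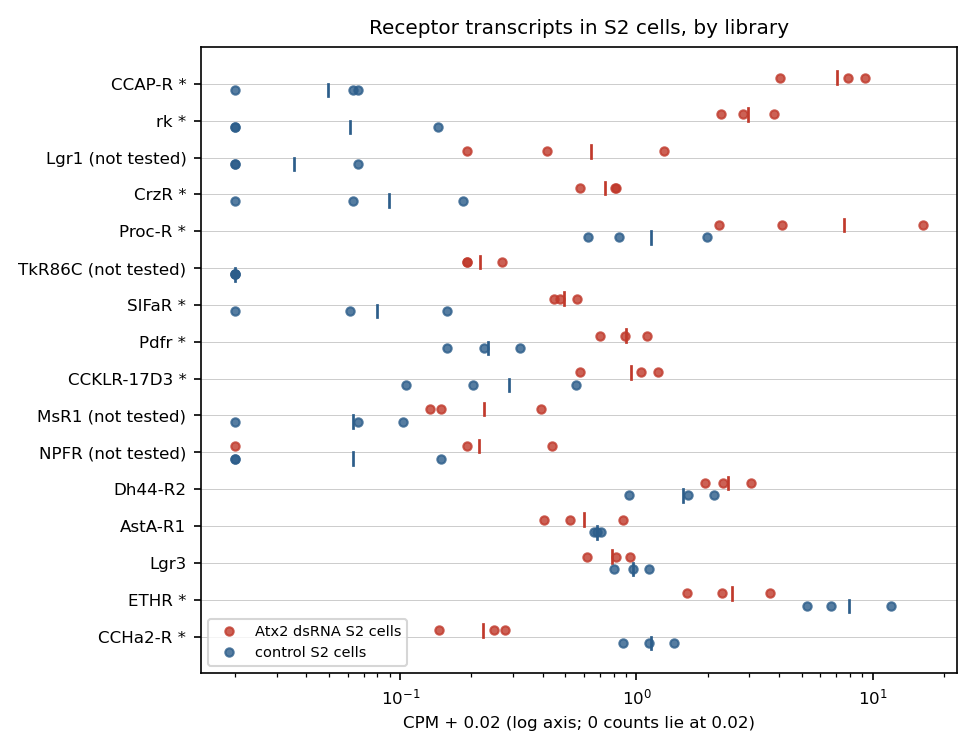
CPM plus 0.02 (log axis) of 16 receptor genes in each S2 cell library, Atx2 dsRNA in red above control in blue, with short vertical lines at the group means. Points at 0.02 have no counts, stars mark the 9 receptors past the threshold, and CCAP-R and rk show the widest gaps between groups.

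2 receptors rose out of near absence in S2 cells. CCAP-R, whose peptide was first known for its effect on the crustacean heart and in flies takes part in ecdysis, lies on chromosome arm 3R from 25923499 to 25956270 (BDGP6, minus strand). It had 97, 217 and 138 counts with dsRNA, against 0, 1 and 1 counts in control, or 4.05, 9.26 and 7.87 CPM, against 0, 0.043 and 0.046 CPM in control. Each dsRNA library was far above every control library. The ratio was 241.3 (95% counting interval 66.43 to 1999), and the fitted log2 fold change was 7.68 ± 0.62 (adjusted p = 5.61e-05). Its level with dsRNA, 2.364 RPKM, was near the 2.416 RPKM of shRNA brain and 2.171 RPKM of control brain (scaled separately). The bursicon receptor rk lies on 2L from 13982743 to 14001248 (minus strand). It had 91, 53 and 49 counts with dsRNA, against 3, 0 and 0 counts in control, a ratio of 68.7 (23.16 to 336.1) and a log2 fold change of 5.93 ± 0.71 (adjusted p = 0.000324). All 3 control counts lay in library 1, and without that library the control has no counts and no fold is given (adjusted p = 0.000605). Its exons share 527 bases with NimC2 on the other strand, and NimC2 had no counts in any S2 library. Both calls held with each library left out. Intervals and limits from counts cover counting error only.

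The other receptors that passed as higher rose from low levels, which for SIFaR and CrzR were 4 and 5 counts over the control group. Proc-R had 16.3, 4.10 and 2.22 CPM with dsRNA, against 1.98, 0.601 and 0.826 CPM in control (log2 fold change 2.72 ± 0.79, adjusted p = 0.0194). Library 1 was the highest of both groups, with 390 of the 525 counts with dsRNA, and all dsRNA libraries were above all controls. Without dsRNA library 1 its log2 fold change was 1.47 (adjusted p = 0.0395) and without control library 1 3.38 (0.0216). The call was lost without control library 2 (0.0704) or 3 (0.0703). CrzR had 0.792, 0.555 and 0.798 CPM with dsRNA, against 0.165, 0.043 and 0 CPM in control (46 counts against 5; 3.22 ± 0.71, adjusted p = 0.00587). SIFaR, the receptor of the feeding and sleep peptide SIFamide, had 0.542, 0.427 and 0.456 CPM, against 0.041, 0 and 0.138 CPM in control (31 counts against 4; 2.92 ± 0.73, adjusted p = 0.0106). In both genes the groups were apart and the dsRNA libraries were close to each other. Without control library 1 the log2 fold change of CrzR was 4.67 (adjusted p = 0.0042), and without control library 3 that of SIFaR was 4.16 (0.0111). Pdfr had 0.876, 0.683 and 1.08 CPM with dsRNA, against 0.206, 0.300 and 0.138 CPM in control (1.99 ± 0.43, adjusted p = 0.00556). CCKLR-17D3 had 1.21, 0.555 and 1.03 CPM, against 0.536, 0.086 and 0.183 CPM in control (1.75 ± 0.62, adjusted p = 0.0424), with its lowest dsRNA library just above its highest control. Its call was lost without dsRNA library 1 (0.0998) or 3 (0.0892) and without control library 2 (0.122) or 3 (0.14). It was also lost with DESeq2 (0.0505) and with the S2 libraries thinned to equal totals (0.057). Without control library 1 the log2 fold change of CCKLR-17D3 was 2.73 (0.0118). In the thinned libraries CrzR and SIFaR fell below the filter, and 6 of 9 receptors tested were called.

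ETHR and CCHa2-R fell. ETHR, the highest receptor of control S2 cells, had 3.67, 1.62 and 2.28 CPM with dsRNA, against 11.95, 5.24 and 6.65 CPM in control (log2 fold change -1.65 ± 0.41, adjusted p = 0.0098). CCHa2-R had 0.125, 0.256 and 0.228 CPM, against 1.11, 0.858 and 1.42 CPM in control (-2.46 ± 0.43, adjusted p = 0.00196). In both genes every dsRNA library lay below every control library, and both calls held with each library left out. ETHR and SIFaR lie 11.5 kb apart on 3R, on opposite strands, and changed in opposite directions. Dh44-R2 (0.66), AstA-R1 (-0.22) and Lgr3 (-0.30) did not pass and their groups overlapped. Dh44-R2 passed with library totals alone (adjusted p = 0.0228).

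Of the 17 receptors with 3 or fewer counts over the 3 control libraries, 9 had over 3 with dsRNA. Besides CCAP-R and rk these were Lgr1, TkR86C, MsR1, NPFR, PK1-R, AstC-R1 and AstC-R2, which were too low for the main test. Lgr1 had 31, 4 and 7 counts with dsRNA, against 0, 0 and 1 in control, a ratio of 44.85 (7.622 to 1813) with most counts in dsRNA library 1. It passed in the fit with no filter (adjusted p = 0.00415). TkR86C had 6, 4 and 3 counts with dsRNA and none in control, which is at least 4.63-fold higher against a floor of 3 counts over the group, and passed in that fit too (0.0159). AstC-R2 had 1, 2 and 3 counts and AstC-R1 3, 0 and 1, against none in control, at least 2.14-fold and 1.42-fold higher on the same floor. MsR1 had 9, 3 and 2 counts with dsRNA, against 2, 0 and 1 in control, and NPFR, the receptor of neuropeptide F, had 10, 4 and 0, against 0, 3 and 0 in control. Both have a ratio of 4.984 (1.391 to 27.05), and the groups of NPFR overlap. PK1-R had 5, 1 and 1 counts, against 2, 1 and 0 in control (ratio 2.492, interval 0.5689 to 14.93). The other 8 had 3 or fewer counts in both groups, so a change in them was not detectable at this depth. The general markers of neurons did not rise with these receptors, as 8 of them summed to 33.89 to 51.51 CPM with dsRNA and 82.24 to 111.5 CPM in control, although nSyb, a gene of the synaptic vesicle, rose (3.47, adjusted p = 0.000571) while brp, of the active zone, fell (-2.20, 6.98e-05). Markers of hemocytes, the blood cells that S2 cells resemble, summed to 213.9 to 277.4 CPM with dsRNA and 1280 to 2001 CPM in control, and all 4 of those tested fell. Their part in the receptor results was not tested.

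The change with Atx2 knockdown differed between brain and S2 cells for 10 receptors. The difference was tested for all 37 as an interaction in a fit of all 12 libraries, in which 41.1% of 11176 genes were called, 19.7% higher and 21.4% lower. Of the receptors 27.0% were called, 3 with a more positive change in brain and 7 with a more negative one. In S2 cells 25 of the 37 receptors were too low for the main test, and 8 had 3 or fewer counts in both groups. The lower share of receptors called therefore does not show that they differed less often than other genes. With upper quartile scaling the interaction calls over all genes split into 1859 higher and 3039 lower, against 2207 and 2388 in the main fit. ETHR rose in brain (1.25) and fell in S2 cells (-1.65), a difference of 2.92 (adjusted p = 0.0028), and CCHa2-R did likewise (0.89 and -2.46, difference 3.36, adjusted p = 0.000117). CCAP-R and rk rose steeply in S2 cells with 0.15 and -0.43 in brain (differences -7.55 and -6.38, adjusted p = 1.39e-05 and 7.4e-05), and SIFaR rose in S2 cells with -0.26 in brain (-3.19, adjusted p = 0.00613). TkR86C, which rose in brain, also differed (-4.44, adjusted p = 0.00431), but its value in S2 cells rests on 13 counts against 0. These 6 passed in all 16 alternatives. AstC-R1 (-5.11, adjusted p = 0.0266) rests on 4 counts against 0 in S2 cells and was lost without dsRNA library 1 (0.138), and AstC-R2 (-4.31, 0.0133) rests on 6 counts against 0 and was lost without dsRNA library 3 (0.058). The S2 value of Dh44-R1 rests on 3 counts with dsRNA against 8 in control, too few for the main test there. CrzR (-2.28, 0.0481) and Dh44-R1 (2.44, 0.0458) passed in 6 and 5 of the 16 alternatives, and 9 single libraries each ended their calls. Without one of these, adjusted p-values were 0.0563 to 0.122 for CrzR and 0.057 to 0.269 for Dh44-R1. Only shRNA library 1, control brain library 3 and control S2 library 1 could be left out of the CrzR fit without loss of the call, and shRNA library 3, dsRNA library 1 and control S2 library 2 out of the Dh44-R1 fit.

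**Figure D5:**
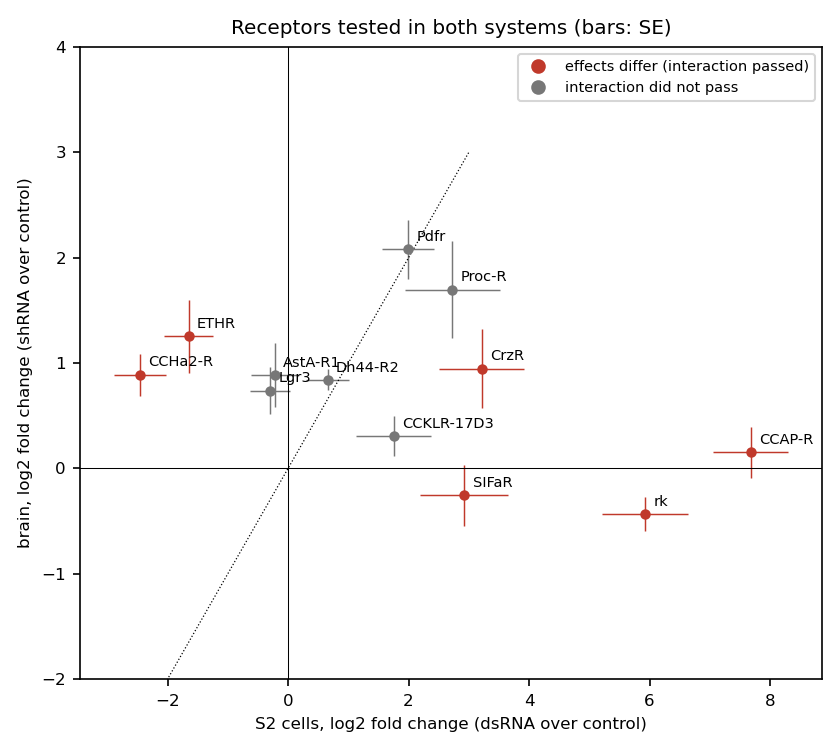
Log2 fold change of the 12 receptors tested in both systems, in larval brain (Atx2 shRNA over control, vertical axis) against S2 cells (Atx2 dsRNA over control, horizontal axis), with bars of 1 SE and a dotted line of equal change. Red points passed the test of the difference, ETHR and CCHa2-R lie in the upper left, CCAP-R and rk lie far right near 0 in brain, and Pdfr and Proc-R are higher in both.

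Pdfr and Proc-R rose in both systems. Pdfr had nearly the same log2 fold change in both, 2.08 in brain and 1.99 in S2 cells, with a difference of 0.08 ± 0.60 (SE, adjusted p = 0.94), while its level with knockdown was 0.712 RPKM in brain and 0.189 RPKM in S2 cells. Proc-R had 1.70 in brain and 2.72 in S2 cells (difference -1.02 ± 1.01, adjusted p = 0.446). Both differences have wide errors and do not show that the changes were equal. Pdfr reached the filter in S2 cells through the dsRNA libraries alone, so its rise there is no support for a shared direction. With 1 library left out, Proc-R kept its call in 1 of 6 fits in brain and 4 of 6 in S2 cells. No receptor was called lower in both systems.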

How the data were processed

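The 12 poly(A) libraries were prepared by the TruSeq mRNA method, per the labels' protocols. For each there is a table of whole-number counts per gene, deposited by the authors. Per the submitters' processing notes, cutadapt 1.13, STAR, HTSeq 0.6.1p1 and the build BDGP6 were used, and DESeq2 is named without a role. How strand was treated, and which annotation release was counted, is not given in the sources used here, and counts of overlapping genes may be shared. Symbols, positions and exon lengths came from an Ensembl annotation of BDGP6, which matched 17599 of 17737 identifiers.

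In R 4.3.3 with edgeR 4.0.16, genes of each system were filtered (filterByExpr, minimum count 10) and scaled by TMM, the trimmed mean of M-values. The quasi-likelihood F test was then applied (adjusted p under 0.05, Benjamini-Hochberg over all genes). CPM are counts over TMM-scaled library sizes, and RPKM divide them by summed exon length. The steps were tested on simulated data with 200 changed genes. Replicates differed by more than sampling noise (chi-square of 22.13 to 153.9 per degree of freedom). Alternatives were other scalings, filters, DESeq2 1.42.0, a fit of all libraries, a replicate block, thinned S2 libraries and leaving out libraries.

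The receptors and the lists of peptides, other receptors, signalling, processing and marker genes were chosen with earlier results of these data known. Any receptor may be named. Values per library are given for Atx2, for called receptors and for receptors with 3 or fewer control counts. The plan was to name up to 4 called members of other lists by size of change. More are named for receptor signalling in brain and for the receptors for amines, acetylcholine, GABA and glutamate in S2 cells.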

Additional observations from a re-analysis of the deposited data

Results flagged for a closer look

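10 receptors changed differently in larval brain and S2 cells by a test of the difference, 27.0% of them, against 41.1% of all genes tested. As 25 of the 37 receptors were too low for the main test in S2 cells, the lower share does not show that receptors differed less often. The difference is given here as the log2 fold change in brain (shRNA over control) minus that in S2 cells (dsRNA over control). It was positive for CCHa2-R (3.358), ETHR (2.917) and Dh44-R1 (2.445), and negative for CCAP-R (-7.553), rk (-6.382), AstC-R1 (-5.112), TkR86C (-4.439), AstC-R2 (-4.31), SIFaR (-3.192) and CrzR (-2.278). The values of AstC-R1, AstC-R2 and TkR86C rest on control S2 libraries with no counts and depend on the fit's prior count. The same holds for rk without control S2 library 1, which has all of its control counts, so no value is given for that fit. Without control S2 library 3, which holds most of its control counts, SIFaR had -4.47. With DESeq2, AstC-R1 had -4.216, AstC-R2 -3.44 and TkR86C -3.616. Without control S2 library 1, CrzR had -3.815 and Dh44-R1 had 1.676, and without dsRNA library 1, Dh44-R1 had 3.268 and AstC-R1 had -3.951. In S2 cells Dh44-R1 had only 3 counts with dsRNA and 8 in control. Groups of 3 libraries were not searched for single outlying values.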

How the results depend on the processing

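No called receptor changed direction in brain, in S2 cells or in the difference between them under the alternatives run, and the cause of each change in a count was not tested. In brain the replicate block, which uses the replicate numbers as pairs, called 40 genes in all (2397 without it), 0 peptide receptors (12), 1 peptide (23), 0 other receptors (17) and 0 signalling and processing genes (15). The 11 higher receptors had log2 fold changes of 0.77 to 2.09 and AstC-R1 -1.27 there, with adjusted p-values of 0.0541 to 0.142. The labels do not say whether same-numbered libraries are pairs. Correlations of same-numbered libraries were 0.0313, 0.225 and -0.442 in brain and 0.444, 0.377 and 0.0314 in S2 cells. Those of libraries with different numbers were -0.445 to 0.423 in brain and -0.436 to 0.302 in S2 cells. These values do not settle the pairing. In S2 cells the block kept all 9 receptor calls and called 5478 genes (4986 without it). With 1 library left out, brain calls ranged over 494 to 2364 for all genes, 3 to 13 for receptors, 14 to 22 for peptides, 5 to 16 for other receptors and 5 to 16 for signalling and processing genes. Without control library 3 and shRNA library 1 together they were 1231, 5, 17, 7 and 10. DESeq2 called 26 signalling and processing genes. The fit of all 12 libraries called 5 other receptors in brain and 14 receptors in S2 cells (12 higher, 2 lower), against 9 there in the main fit. In S2 cells the ranges with 1 library left out were 3877 to 5466 for all genes and 7 to 10 for receptors, and for the difference between systems 3909 to 4674 and 8 to 11. The filter of 5 CPM in 3 libraries left no receptor in S2 cells. With the S2 libraries thinned to equal totals, 9 receptors were tested and 6 called. In S2 cells 17 receptors have 3 or fewer control counts, which limits what can be tested there.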

Other observations

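In S2 cells the peptide genes were as low as their receptors. Of 34, 9 were tested, of which 4 rose and 1 fell, 55.6% called beside 55.0% of all genes tested in S2 cells. Without control S2 library 1 or 2, 2 rose and 1 fell of 8 tested. Gpb5, a subunit of the hormone that Lgr1 binds, had 89, 81 and 91 counts with dsRNA, against 5, 7 and 4 counts in control (log2 fold change 4.12, adjusted p = 6.77e-05, edgeR quasi-likelihood test), and every dsRNA library was above every control library. Crz, the peptide of CrzR, had 9, 16 and 7 counts with dsRNA, against 2, 0 and 0 counts in control, a ratio of 17.09 (95% counting interval 4.359 to 147.2; adjusted p = 0.00645). Tk (2.96, adjusted p = 0.000974) and Dsk (1.58, 0.0206) rose, and AstA had 16, 15 and 9 counts with dsRNA, against 100, 91 and 79 counts in control (-2.66, 0.000128). Crz and CrzR were both called higher in S2 cells, and so were Dsk and its receptor CCKLR-17D3. Crz, CrzR and CCKLR-17D3 reached the filter on low counts through the dsRNA libraries alone. They had to differ to be tested, so these pairs are no support for a common direction. The call of CCKLR-17D3 also depended on single libraries, and AstA fell beside AstA-R1, which did not pass.

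Of the 24 receptors for amines, acetylcholine, GABA and glutamate, 9 were tested in S2 cells, of which 6 rose and 1 fell, 77.8% called beside the same 55.0%. The number called moved with single libraries. It was 2 without control library 2 or 3, 3 without dsRNA library 2 or 3, 4 without control library 1 and 6 without dsRNA library 1. The muscarinic receptor mAChR-C had 45, 12 and 24 counts with dsRNA, against 1, 1 and 0 counts in control, a ratio of 43.25 (11.59 to 363.2; log2 fold change 5.19, adjusted p = 0.00125), and was not tested in brain. Octbeta2R (2.84, 0.0254), Octbeta3R (2.60, 0.0442), 5-HT7 (1.49, 0.039), mGluR (1.09, 0.0249) and GABA-B-R2 (0.77, 0.0181) rose, and Dop1R1 fell (-1.01, 0.0309). The call of Dop1R1 was lost with upper quartile scaling, with library totals alone and without any one of the 5 S2 libraries other than dsRNA library 1. Several of these genes reached the filter on low counts through the dsRNA libraries, so the counts are no support for a common direction.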
